A study of Drosophila melanogaster with 2 samples.

Results

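The pair-rule segmentation genes of Drosophila melanogaster were examined for binding of Escargot, the product of escargot (esg). The 9 genes were ftz, eve, odd, prd, run, h, slp1, slp2 and opa, taken as a class by name and not by their signal. Binding was read from a chromatin immunoprecipitation and sequencing (ChIP-seq) experiment on whole embryos collected between 0 and 24 h of development. All embryos carried an insertion that expresses Escargot fused to enhanced green fluorescent protein (esg-eGFP), and an antibody against the fluorescent protein precipitated sheared chromatin of 200 to 800 bp. The antibody field of the labels names esg itself, and the promoter that drives the fusion is not given in the sources used here. The series holds 1 group of 2 biological replicates of 1 strain, with no second condition, so the counts below describe these libraries and carry no test between groups. A peak was taken as a pair-rule gene's when its summit, the single base that the files give for each peak, was nearest to the start site of that gene among all protein-coding genes, or lay inside the gene. The main list holds peaks that passed a reproducibility limit over both replicates together, and a site is said to pass the threshold in 1 replicate when it overlaps a peak of that replicate's own thresholded list. By nearest start site or gene body, 10 of 4397 peaks belonged to the set, and 6 of the 9 genes had at least 1 peak. Among all 13968 protein-coding genes, 20.3% had at least 1 peak. Sequencing depth is unknown, and the collection spans all embryonic stages and all tissues, so a binding event in few cells cannot be told apart from a weak one in many. Peak lists hold no expression values, so the tissue was not checked against marker genes.

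Pair-rule genes encode transcription factors that divide the early embryo into segments. Most are transcribed in stripes that mark alternate segments, and mutants lose the corresponding parts of every other segment. Maternal and gap factors set the first stripes through separate enhancers scattered around the primary genes, and the pair-rule factors then regulate each other and switch on the segment polarity genes. Several of them are used again later, in the nervous system, the muscles and the gut. Escargot is a zinc finger factor of the Snail family, whose members are known as repressors that bind E-box sequences. It is best known for the maintenance of diploid imaginal cells, tracheal tip cells and adult intestinal stem cells.

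The sequences below are the 201 bases centred on the summit of the strongest peak by signal value of each pair-rule gene that had one, because these are the places where Escargot was measured at the set. They are the plus strand of the dm6 genome in the 5′ to 3′ direction, whichever strand the gene is on, and capitals mark each CAGTG or its reverse complement. The windows are chr2L:3832402-3832602 for slp2, chr2L:3598587-3598787 for odd, chr3R:4846859-4847059 for opa, chr3L:8668229-8668429 for h, chr3R:6869421-6869621 for ftz and chr2L:3827796-3827996 for slp1.
slp2 peak 1: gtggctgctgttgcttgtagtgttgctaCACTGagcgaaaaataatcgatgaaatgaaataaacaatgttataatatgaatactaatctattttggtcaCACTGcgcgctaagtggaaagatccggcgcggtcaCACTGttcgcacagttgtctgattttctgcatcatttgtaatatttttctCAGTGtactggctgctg
odd peak 1: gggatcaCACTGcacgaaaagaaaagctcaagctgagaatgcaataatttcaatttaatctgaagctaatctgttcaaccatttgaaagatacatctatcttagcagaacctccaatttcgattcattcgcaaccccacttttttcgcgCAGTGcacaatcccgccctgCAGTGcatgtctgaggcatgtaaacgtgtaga
opa peak 1: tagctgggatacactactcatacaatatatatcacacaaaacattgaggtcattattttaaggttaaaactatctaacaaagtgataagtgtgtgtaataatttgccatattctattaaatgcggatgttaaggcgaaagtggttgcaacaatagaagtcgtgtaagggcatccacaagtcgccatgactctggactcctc
h peak 1: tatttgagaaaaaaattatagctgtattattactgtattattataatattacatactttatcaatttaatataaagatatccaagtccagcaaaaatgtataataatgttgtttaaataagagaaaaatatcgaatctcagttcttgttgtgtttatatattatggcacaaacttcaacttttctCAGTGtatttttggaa
ftz peak 1: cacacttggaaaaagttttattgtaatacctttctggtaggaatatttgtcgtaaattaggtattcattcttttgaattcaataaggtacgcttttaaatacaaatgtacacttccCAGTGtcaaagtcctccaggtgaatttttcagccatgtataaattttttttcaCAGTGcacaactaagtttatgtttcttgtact
slp1 peak 1: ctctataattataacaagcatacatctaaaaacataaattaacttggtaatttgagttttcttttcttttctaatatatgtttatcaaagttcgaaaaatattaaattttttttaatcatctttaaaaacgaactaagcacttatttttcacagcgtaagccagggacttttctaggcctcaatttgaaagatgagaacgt

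The highest signal value of the set lay between the sister genes slp1 and slp2. Both encode forkhead domain factors that are expressed in nearly the same stripes and repress other pair-rule genes. slp1 (FBgn0003430, chr2L:3825675-3827099) and slp2 (FBgn0004567, chr2L:3836840-3839185) are both transcribed on the plus strand, with start sites 11165 bp apart and 9740 bp of sequence between them. The first slp2 peak (chr2L:3832405-3832619) was in this gap, 4338 bp upstream of the slp2 start site and 6827 bp from the slp1 start site. Its signal value, a number per peak that the authors deposited without a stated unit, was 407.7. This was rank 293 of the 4419 peaks in the main list, within the top 6.6%. In the replicates' own lists ranked before any threshold, the same site had signal values of 217.9 in replicate 1 and 181.8 in replicate 2. These were rank 278 of 62029 and rank 345 of 32946, so the site was near the top of both. In the shorter thresholded list of replicate 2 alone it was rank 335 of 3357.

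A second, weaker site lay in the same gap. The slp1 peak (chr2L:3827728-3828063) was 2221 bp downstream of the slp1 start site, beyond the end of the gene, and 4606 bp from the strong slp2 summit. Its signal value was 81.8, rank 3136, so 71.0% of the main list was at or above it. The second slp2 peak (chr2L:3841030-3841365) was on the other side of slp2, 4358 bp downstream of its start site, with a signal value of 91.5 and rank 2718. It was 8696 bp from the strong summit. The slp locus therefore held 3 of the 10 peaks, of which 1 was above the median signal value of the main list, 108.4, and 2 were below it.

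odd (FBgn0002985, chr2L:3604224-3606756) encodes a zinc finger repressor of other pair-rule genes. Its peaks both lay beyond the 3′ end of the gene, which is transcribed on the minus strand. The first (chr2L:3598519-3598854) was 8069 bp downstream of the start site with a signal value of 149.4 and rank 1441. In the replicates its signal values were 80.9 in replicate 1 and 67.8 in replicate 2, and it passed the threshold in both. The second (chr2L:3600862-3601197) was 2343 bp from the first and 5726 bp downstream of the start site. It had a signal value of 66.4 and rank 3840, and it passed the threshold in neither replicate alone. The paralogues sob and drm, which encode related zinc finger proteins near odd, had no peak.

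opa (FBgn0003002, chr3R:4852813-4869979) encodes a zinc finger factor of the Zic family, which is expressed in a broad domain rather than stripes and sets the time of the later pair-rule patterns. Its single peak (chr3R:4846791-4847126) was 5854 bp upstream of the start site, with a signal value of 104.3 and rank 2313. It was on the thresholded list of both replicates, with signal values of 46.9 in replicate 1 and 56.6 in replicate 2. In replicate 1's own thresholded list 87.7% of peaks were at or above it, against 52.3% in the main list. No summit of the main list was inside the 17167 bp opa gene, the longest of the set.

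h (hairy, FBgn0001168, chr3L:8675759-8679253) encodes a basic helix-loop-helix repressor that acts with the corepressor Groucho. Its first peak (chr3L:8668161-8668496) was 7430 bp upstream of the start site, with a signal value of 97.6 and rank 2494. The signal values there were 50.9 in replicate 1 and 53.2 in replicate 2, and the site passed the threshold in replicate 1 alone. The second peak (chr3L:8691874-8692209) was 16087 bp downstream, on the far side of the gene and 23713 bp from the first. With a signal value of 46.0 and rank 4229 it was the weakest of the set. Its summit was 661 bp from the start of a long noncoding RNA gene, lncRNA:CR44526, and 28183 bp from the next coding start site, that of SrpRbeta. Neither replicate passed the threshold there. The overlapping ranked peak had a signal value of 29.9 in replicate 1. In replicate 2 the overlapping peak had 27.8, but its summit was outside the main-list peak, 16373 bp from the start site.

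ftz (FBgn0001077, chr3R:6864324-6866244) encodes a homeodomain factor that activates alternate stripes of the segment polarity gene engrailed, and it lies within the Antennapedia complex of Hox genes. Both of its peaks were on the 3′ side. The first (chr3R:6869353-6869688) was 5197 bp downstream of the start site with a signal value of 84.3 and rank 3029. The second (chr3R:6881698-6882033) was 17542 bp downstream with a signal value of 81.7 and rank 3143, and its summit was in an intron of a noncoding gene, lncRNA:CR44931, whose start was 3412 bp away. The next coding start site was that of the Hox gene Scr, 19540 bp from the first summit and 31885 bp from the second. Of the ftz sites, the first passed the threshold in replicate 2 alone, with signal values of 41.7 and 40.3 in replicates 1 and 2. The second passed in both, with 46.4 and 35.1. By any annotated gene rather than coding genes alone, the second ftz peak and the second h peak would belong to the noncoding genes, which leaves 8 peaks at the same 6 pair-rule genes.

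**Figure D1:**
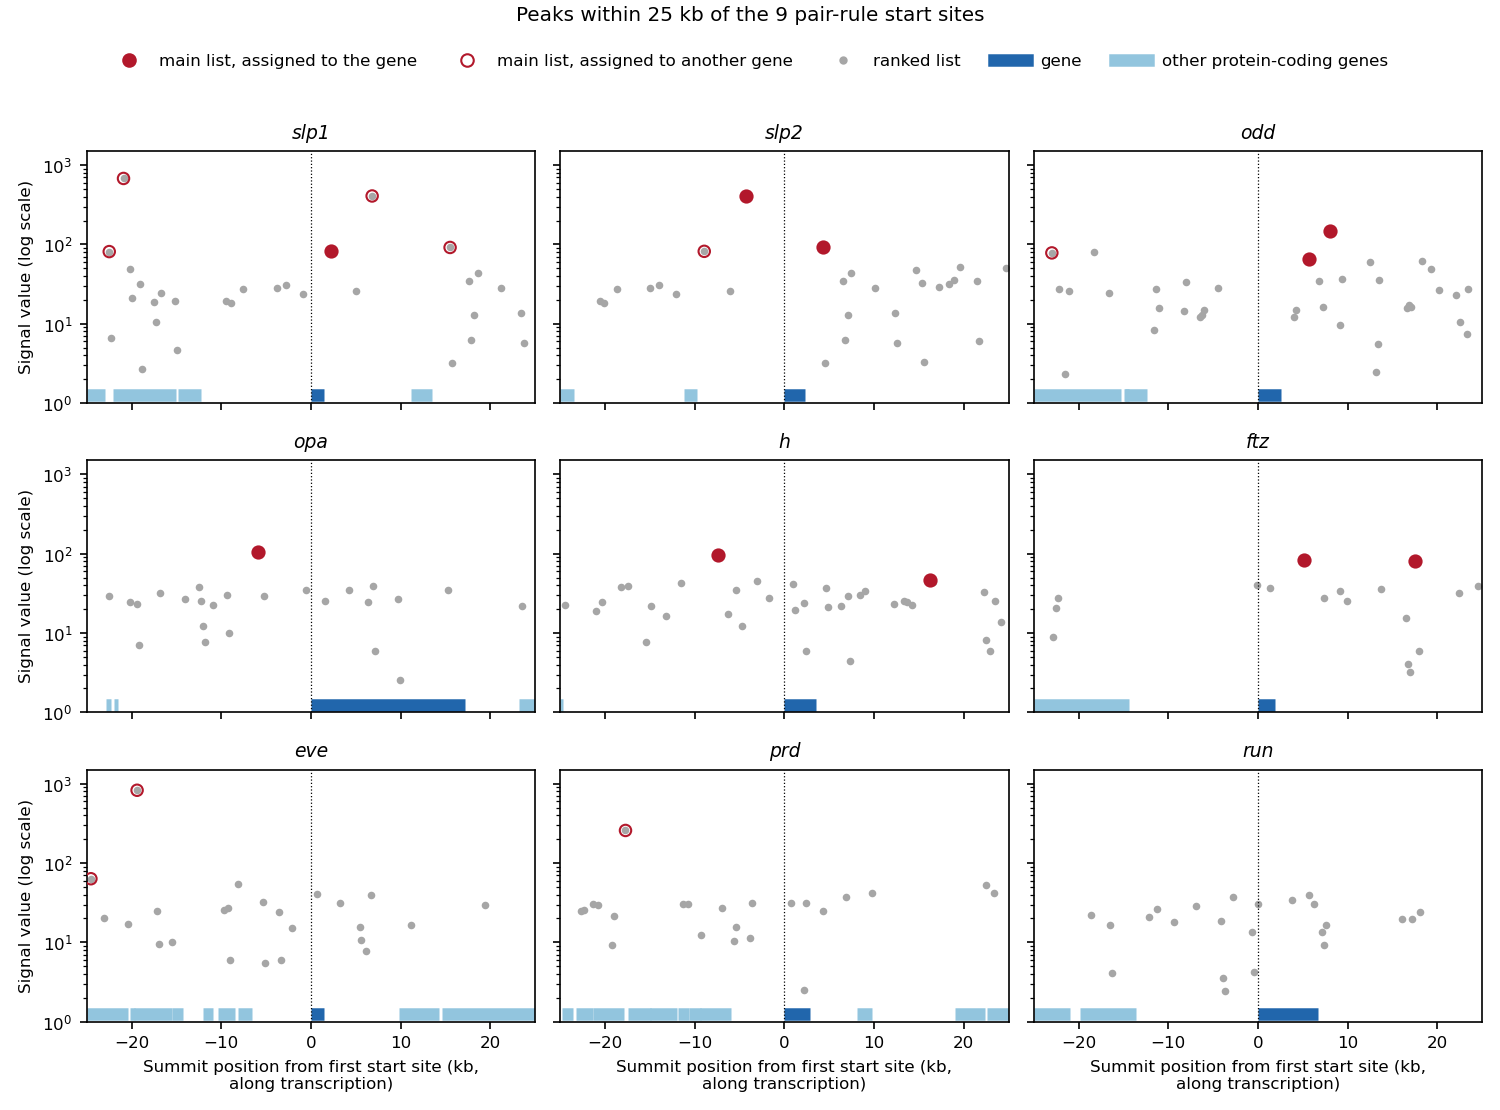
Signal value (log scale, unit not stated) of each peak against the position of its summit in kb from the first start site of each gene, along the direction of transcription, for the 9 pair-rule genes. Filled red points are main-list peaks of the gene, open red circles are main-list peaks of other genes, grey points are peaks of the list before the threshold, and bars mark genes. The 10 filled points lie 2221 to 17542 bp from the start site, 3 of them upstream, and the eve, prd and run panels have none.

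The 3 genes without a peak were eve, prd and run, and they encode a homeodomain factor, a factor with a paired domain and a homeodomain, and a Runt domain factor. The list before the threshold holds 60515 peaks and gave each of them a weak candidate. At eve (FBgn0000606, chr2R:9979319-9980795) the strongest of 5 ranked peaks had a signal value of 40.8, rank 9161, with its summit in the coding exon 684 bp downstream of the start site. At run (FBgn0003300, chrX:20690670-20697321) the strongest of 16 had 39.2, rank 10022, in a coding exon 1972 bp downstream of the nearest start site. At prd (FBgn0003145, chr2L:12082995-12085827) the strongest of 4 had 31.3, rank 17734, in a coding exon 1925 bp downstream of the nearest start site. Their scores of 248, 291 and 204 were far below 830, the lowest score in the main list. Their −log10 values of the irreproducible discovery rate (IDR), a measure of reproducibility that is higher for more reproducible peaks, were 0.6, 0.7 and 0.49. The weakest pair-rule peak in the main list had 2.01.

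The strongest of these weak candidates lay at different places in the replicates. The strongest ranked peak near eve was 1691 bp downstream of the start site in replicate 1 (signal value 33.5) and 3172 bp downstream in replicate 2 (20.1). Replicate 1 also had an eve peak 845 bp upstream with a signal value of 33.0. Its −log10 IDR was 0.95, against 0.5 for the strongest. A second ranked list for both replicates together, of 17446 peaks, had its strongest eve peak 1732 bp downstream. That peak had a signal value of 45.7, above the 40.8 of the coding exon candidate, with rank 6918 and a −log10 IDR of 0.48. The next eve peak of that list was 866 bp upstream, with a signal value of 37.7 and a −log10 IDR of 0.16. The candidate in the eve coding exon had a ranked peak in both replicates, with signal values of 23.9 in replicate 1 and 16.2 in replicate 2. Near run the strongest was 6249 bp downstream in replicate 1 (23.5) and 2803 bp upstream in replicate 2 (21.4). Near prd it was 1805 bp downstream in replicate 1 (18.3) and 298 bp downstream in replicate 2 (18.9). The nearest main-list summits were 19394 bp upstream of eve, 17730 bp upstream of prd and 33841 bp upstream of run. Each of those belonged to another gene by start site, Pal1 with a signal value of 826.5, ThrRS with 257.3 and Cyp6v1 with 66.4. Binding at eve, prd and run was thus not detectable above the threshold in these libraries, whose depth is unknown.

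All ranked peaks of the 9 genes numbered 106, of which 10 were in the main list. Just inside the threshold was the second h peak, with a score of 832 and a −log10 IDR of 2.01. Just outside were an odd peak (chr2L:3594045-3594380) with a score of 748, a −log10 IDR of 1.8 and a signal value of 59.8, and an h peak (chr3L:8676594-8676929) with a score of 663, a −log10 IDR of 1.6 and a signal value of 42.0. The odd peak lay 12543 bp downstream of the start site. The h peak lay 807 bp downstream, inside the gene. The odd peak had a higher signal value than the second h peak, so its place outside the list followed the score and not the signal.

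No pair-rule peak lay at the promoter of a coding gene, while the second h summit was 661 bp from the start of a noncoding gene. The summits of the 10 peaks were 2221 to 17542 bp from the coding start site, with a median of 5790 bp, against a median of 1036 bp over all 4397 peaks. All 10 were over 2000 bp away, against 39.1% of all peaks. None was within 500 bp, against 39.7% of all peaks. The summit was intergenic for 9 of 10, against 38.3% of all peaks. None of the 9 genes had a summit in its body, against 11.1% of all protein-coding genes. Upstream positions accounted for 3 of 10 pair-rule peaks, the first peaks of slp2, h and opa, against 59.2% of all peaks and 39.5% of those over 2000 bp from a start site. These positions are a description of 10 peaks at 6 genes.

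The signal values of the set lay in the middle and lower ranks of the list apart from the first slp2 and odd sites. Their median was 87.9, against 108.4 for all peaks and 95.4 for peaks over 2000 bp from a start site. Of the 10 peaks, 2 were above the list's median, the first peaks of slp2 and odd. The other 8 lay between rank 2313 and rank 4229. A width of 336 bp was shared by 9 of the 10 peaks, against 79.3% of all peaks, and the strong slp2 peak was narrower at 215 bp.

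**Figure D2:**
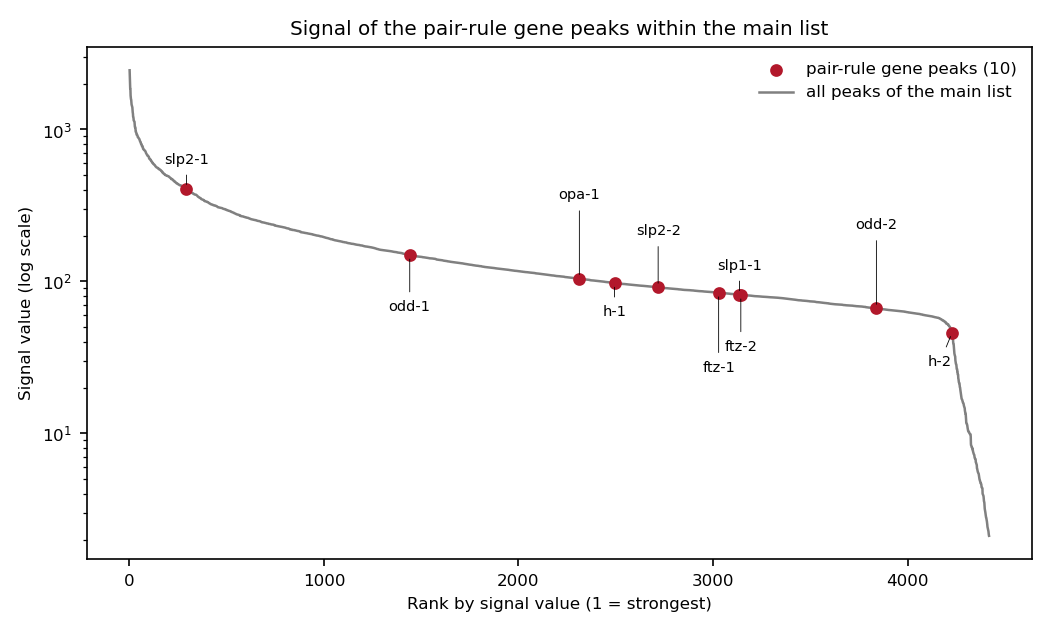
Signal value (log scale, unit not stated) against rank for all 4419 peaks of the main list (grey line), with the 10 pair-rule gene peaks in red. The first slp2 peak stands at rank 293 and the first odd peak at rank 1441, and the others lie between rank 2313 and rank 4229.

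Of the 10 peaks, 4 overlapped a thresholded peak of both replicates by at least 1 bp, against 57.5% of all peaks and 50.3% of those over 2000 bp from a start site. They were the first peaks of slp2, odd and opa and the second ftz peak. A further 3 overlapped a thresholded peak of 1 replicate, the first h peak in replicate 1 and the second slp2 peak and the first ftz peak in replicate 2. The slp1 peak, the second odd peak and the second h peak were in neither list, 3 of 10 against 18.2% of all peaks. All 10 sites overlapped a ranked peak of each replicate by at least 1 bp. For the second h site the replicate 2 peak overlapped only in part. Its summit lay outside the main-list peak, 16373 bp from the start site against 16087 bp. The joint list before the threshold had a separate h peak beside this site, with a signal value of 43.8. From the first h start site it was 16577 bp away, against 16283 bp for the second h peak. The replicate 2 summit was nearer to that neighbour, so its 27.8 need not be a value of the second h site. By its own thresholded list, replicate 1 had peaks at slp2, odd, opa, h and ftz, and replicate 2 at slp2, odd, opa and ftz. The slp1 call therefore rested on the joint list, with signal values of 39.0 in replicate 1 and 38.1 in replicate 2.

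**Figure D3:**
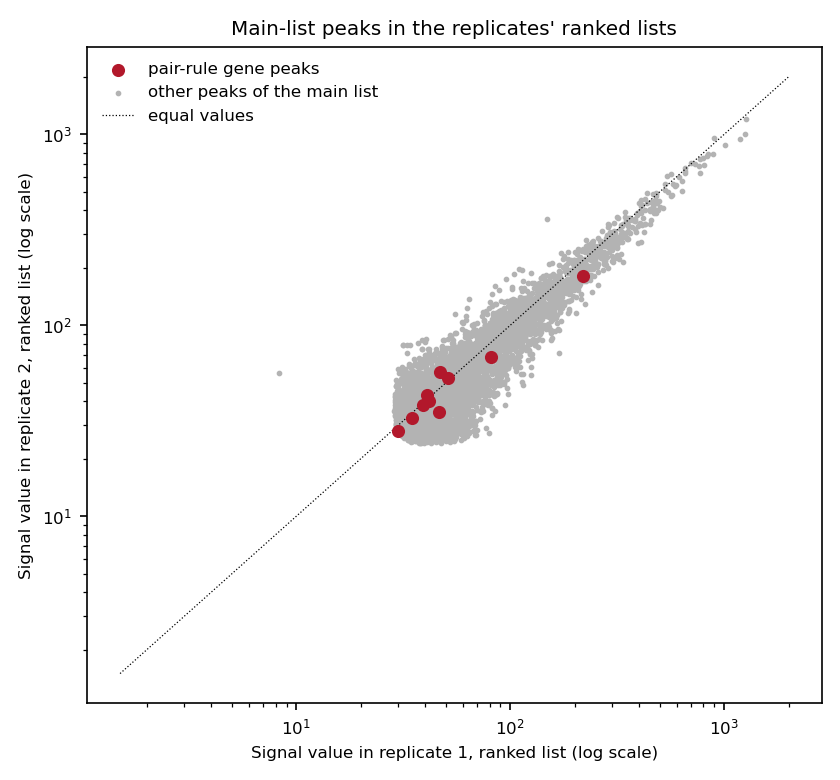
Signal value in the ranked list of replicate 2 against that in the ranked list of replicate 1 (both log scales, unit not stated) for peaks of the main list, with the 10 pair-rule gene peaks in red and a dotted line of equal values. The first slp2 peak is at 217.9 and 181.8, the first odd peak at 80.9 and 67.8, and the other 8 lie between 27.8 and 56.6 in both replicates. The 27.8 is from a replicate 2 peak that overlaps the second h peak only in part.

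The pair-rule genes stand in large stretches of sequence without other coding genes. The sequence nearer to a gene's start sites than to any other coding start site had a median of 19.2 kb over the 9 genes, against 4.3 kb over all protein-coding genes. It was largest for ftz at 41.4 kb and h at 35.5 kb, and smallest for eve at 8.9 kb and prd at 8.1 kb. run, also without a peak, had 31.3 kb. Per 100 kb of this sequence the set had 5.05 peaks, against 3.2 for all genes. slp2 had 10.81, odd 10.44, slp1 8.54, h 5.64, ftz 4.83 and opa 4.23 peaks per 100 kb. Among the 1635 genes with at least 19.2 kb, 42.6% had a peak, against 20.3% of all genes. Among the 4170 genes with at least 8.1 kb, the smallest stretch of the pair-rule genes, 34.2% had a peak. Of the 9 pair-rule genes, 6 had one. Genes with more surrounding sequence thus had a peak more often. The part of surrounding sequence in the pair-rule count was not tested. At least 2 peaks were assigned to 4 of the 9 genes (ftz, odd, h and slp2), against 5.89% of all genes.

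**Figure D4:**
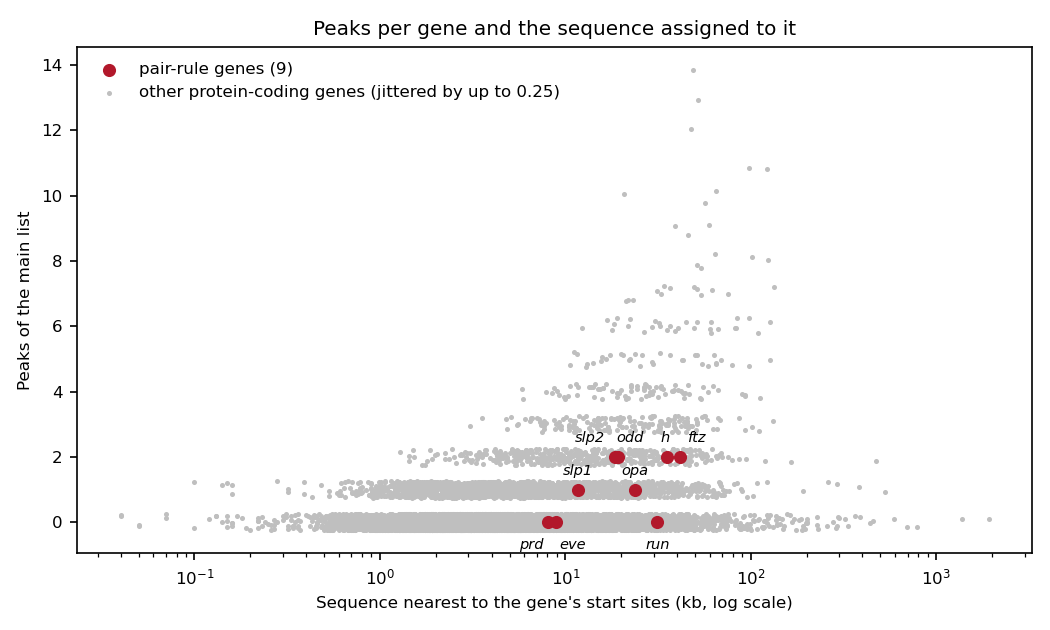
Number of main-list peaks per gene against the sequence nearest to its start sites in kb (log scale), with the 9 pair-rule genes in red and other protein-coding genes in grey, spread vertically for visibility. Genes with 2 peaks are slp2, odd, h and ftz, genes with 1 are slp1 and opa, and prd, eve and run are at 0.

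The summit windows were searched on both strands for 6 motifs and for the shorter word CAGTG. The Snail family E-box CAGGTG was in 1 of 10 windows, that of the first ftz peak at 32 to 37 bases after the summit, against 5.28% of all summit windows. Any E-box (CANNTG, which includes CAGGTG) was in 6 of 10, against 57.27% of all windows. The windows of opa, slp1 and both h peaks had none. The Zelda motif CAGGTAG was in none of the 10, against 0.73%, and the DREF motif TATCGATA in none, against 2.09%. GAGAG, the motif of GAGA factor, was in the window of the second odd peak, against 19.79% of all windows. None of these counts departed from the share over all windows by more than 1 window.

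Besides E-boxes, the windows held CAGTG words. The longer ACAGTG, which had drawn attention in earlier results of these data, was in 3 of 10 windows, the first slp2 peak and both ftz peaks, against 20.22% of all windows. CAGTG, which is part of ACAGTG and was added after the pair-rule windows had been read, was in 8 of 10, against 49.15% of all windows and 56.23% of those over 2000 bp from a start site. Within 50 bp of the summit the count fell to 4 of 10, against 18.4% of all windows of that length and 20.14% of those over 2000 bp from a start site. The first slp2 window held 4 copies, 1 of which covered the summit itself from base -1 to base 3 relative to it. The first odd window held 3 and the first ftz window 2, while opa and slp1 had 0, as the sequences printed above show. The order of signal values did not follow the count of copies throughout, since opa with 0 copies had a higher signal value than either ftz peak. The GC content of the 10 windows had a median of 36.1%, against 33.3% of all windows, and ran between 22.4% at the first h peak and 46.3% at the second.

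Other genes of the segmentation hierarchy were counted by the same rule to place the set. Of 11 maternal and gap genes 3 had a peak, of 10 segment polarity genes 5, and of 9 paralogues or partners of pair-rule genes 5, against 20.3% of all protein-coding genes. Of these 13 genes, 4 had their strongest summit within 500 bp of the start site, against none of the 6 pair-rule genes with a peak. Over all peaks, 39.7% lay within 500 bp. That share counts every peak and not the strongest of each gene, so it is not a like measure for the 4 of 13. gro, which encodes the Groucho corepressor used by h and other pair-rule repressors, had a signal value of 589.1 at a summit 137 bp away from its start site. bowl, a paralogue of odd, had 544.8 at 202 bp. nkd, an inhibitor of Wingless signalling, had 263.0 at 163 bp, and bcd, the anterior maternal determinant, had 127.8 at 49 bp. Of the other maternal and gap genes, knrl had 100.5 at 19801 bp and nos, the posterior determinant, 69.9 at 910 bp, both in introns. Only the strongest peak of each gene was compared. Among genes whose strongest peak was over 2000 bp away, mid, a T-box gene, had 294.9 at 15211 bp. There, ptc, the Hedgehog receptor, had 268.0 at 5280 bp, and lilli had 229.8 at 6961 bp. These distal values were below the 407.7 of the first slp2 peak. Further peaks of genes such as bowl, nkd and gro, whose strongest peak was near the start site, were not compared.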

How the data were processed

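Per the deposited text descriptions, the authors' peaks are in dm6 coordinates and derive from the alignments of the replicates with a control. Neither the aligner nor the peak caller is given in the sources used here. The signal value of each peak was deposited by the authors with no stated unit and was used only to rank and describe peaks. Ranked lists also carry the deposited −log10 IDR, computed by the authors over all ranked peaks. The main list was the one whose name calls it conservative (4419 peaks, 4397 on the 7 chromosome arms). A second list for both replicates together had 3761 peaks, and replicates 1 and 2 had 3138 and 3357 on their own. Depth per sample is unknown.

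Each summit was assigned to the nearest protein-coding start site of Ensembl release 115 (BDGP 6.54), in which h is listed as hry and nos as nanos. Sequences come from RefSeq's copy of that assembly, and positions are 1-based. Motif windows reached 100 bp either side of the summit. Assignment and motif search were tested on simulated data. Python 3.11.15, numpy 2.4.6, pandas 2.3.3 and matplotlib 3.10.9 were used.

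The genes and lists were chosen with earlier results of these data known. All 9 genes are named, with noncoding genes at their summits and up to 3 genes of each other segmentation class nearest to the strongest peaks. Neighbouring coding genes are named for position, and sob and drm were named after their counts were seen. The labels do not say more of the replicates than that they are biological, so their spread may be partly technical.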

Additional observations from a re-analysis of the deposited data

How the results depend on the processing

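Of the alternative settings of the main counts, distances and motif shares, 33 were classed as not moving the value and 17 as moving it. Values classed as not moved were not always equal, and the rule behind the classes is not set out here. The counts of 33 and 17 are therefore no measure of how stable the results are. The genes with a peak went from 6 to 4 without replicate 1 and to 9 before the threshold. The assigned peaks went from 10 to 8 by the nearest start of any gene. For the rank of each gene's strongest peak within its list, 13 of 15 alternatives moved it. The opa peak had 87.7% of the list at or above it without replicate 2, against 52.3%, and the first slp2 peak was rank 335 of 3357 without replicate 1, against rank 293 of 4419. Among peaks above the list's median signal, 2 genes with 2 peaks were left, both peaks were in both replicates, and the Snail family E-box was in 0 windows. Counted inside gene bodies or within 1000 bp of a pair-rule start site, 0 peaks at 0 genes were left. Before the threshold there were 106 peaks, of which 10 were within 1000 bp of a start site. Leaving out either replicate left 6 peaks, at 4 to 5 genes (lowest and highest), a median distance of 5507.5 to 7397.5 bp, and 0 to 1 windows with that E-box. Without replicate 2, 2 of the 6 were overlapping peaks at the first h site, with signal values of 50.9 and 4.0. The median of 7397.5 bp counts both. The E-box was in 2 windows when whole peaks were searched and in 2 of the windows from the other series list. That list had 9 pair-rule peaks, lacked the second odd and h peaks, and gave slp2 an extra peak of signal value 3.2 that overlaps its second peak. CAGTG was in 4 windows within 50 bp of the summit, against 18.4% of all windows of that length, a setting chosen after seeing the data. The causes were not tested. No paired analysis was possible because the result comes from no test between groups. The pair-rule counts rest on 10 peaks in 2 libraries of unknown depth.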
